A study of Mus musculus with 2 samples.

Results

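Transcripts of 8 lysosomal proteases and of 1 inhibitor of the cysteine proteases among them were followed through the leukocytes of mouse pancreatic islets. The proteases are the cysteine cathepsins S, L, B, Z, C and H (Ctss, Ctsl, Ctsb, Ctsz, Ctsc and Ctsh), the aspartic protease cathepsin D (Ctsd) and legumain (Lgmn). The inhibitor is cystatin C (Cst3), a small secreted protein that blocks cysteine cathepsins. The 9 genes were taken by symbol from the 32285 genes of the deposited matrices, and all 9 were found there. The leukocytes came from hand-picked islets of 12-week-old female NOD mice, a strain with spontaneous autoimmune diabetes, and of age-matched NOD.Cxcl16-/- females, and were sorted as live CD45+CD31- cells. Each genotype has 1 library, of 10x Genomics 3' v3.1 chemistry, and the number of animals behind it is not given in the labels. All cells of both libraries therefore carry the NOD background, and the genotypes differ by name only in Cxcl16, a chemokine gene.

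Lysosomal proteases are made as inactive precursors, mature in acid compartments and degrade proteins taken up from outside or delivered from within the cell. In antigen-presenting cells they also trim the invariant chain that guards the groove of MHC class II molecules, with cathepsin S the main enzyme of that step in B cells and dendritic cells. Macrophages are known for a broad set of these enzymes, and in killer lymphocytes cathepsin C removes the propeptide of granzymes.

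Sequencing gave 93553185 UMIs in 13859 barcodes for WT NOD (a median of 3808 per barcode) and 98681133 UMIs in 10554 barcodes (a median of 5054) for the other library, which is labelled NOD.Cxcl16-/-. Cxcl16 itself stood at 103 and 102 CPM (UMIs of the gene per 1000000 UMIs) over all barcodes and at 711 and 494 CPM in macrophages, which goes against the knockout label. Which part of Cxcl16 the allele removes is not given in the sources used here, and a 3' read outside that part would not show it. That library is therefore called by its label, and no direction below is attributed to genotype. Of 12252 and 10214 barcodes kept, 7306 and 6793 fell into 1 of 16 marker gates, none of which uses a member gene. The gates left out 1252 and 1238 barcodes with markers of more than 1 lineage and 3694 and 2183 that passed no gate. The libraries shared 45 barcode sequences. Levels in a gate are CPM of all UMIs of that gate. Because each transcript is counted at its 3' end, levels were not divided by length. Intervals are at the 95% level and cover counting error only, and with 1 library per genotype no difference has a replicate check. Values are given for the WT NOD library first.

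The gates of macrophages and cDC1 were compared by markers that neither uses. The complement genes C1qa, C1qb and C1qc summed to 8449 and 14733 CPM in the macrophage gate (68 and 143 cells), against 6.53 and 35.4 CPM in B cells (1848 and 2069 cells) and 29.1 and 21.7 CPM in CD8 T cells (2796 and 1579 cells). Zbtb46, Batf3 and Wdfy4 summed to 712 and 664 CPM in type 1 conventional dendritic cells (cDC1; 53 and 85 cells) and to 118 and 151 CPM in macrophages. A gate of Ifitm3 Cfp myeloid cells, described below, held Zbtb46 at 75.9 and 81.7 CPM, Batf3 at 89.1 and 103 CPM and Wdfy4 at 217 and 244 CPM. Macrophages were lower for each, at 12.3 and 10.2, 61.7 and 88.5, and 43.8 and 52.4 CPM. Lyz2 stood at 436 and 425 CPM in that gate, against 11518 and 9595 CPM in macrophages. Barcodes with macrophage markers were often mixed. Of 368 and 667 barcodes with at least 3 of 8 macrophage markers, 66.8% and 61.3% also held at least 3 of 5 T-cell genes, and only 68 and 143 were kept as macrophages.

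The genes lie apart in the mouse genome (GRCm38, GENCODE M21). Ctss is at chr3:95526786-95556403 on the plus strand with 8 exons, Ctsl at chr13:64359337-64370890 on the minus strand with 9, and Ctsb at chr14:63122462-63145923 on the plus strand with 10. Ctsz is at chr2:174427493-174439039 on the minus strand with 6 exons, and Ctsh at chr9:90054152-90076089 on the plus strand with 12. Ctsc and Ctsd share chromosome 7, at chr7:88278085-88310888 on the plus strand with 7 exons and at chr7:142375911-142388038 on the minus strand with 9. Lgmn is at chr12:102394084-102439813 on the minus strand with 14 exons. Cst3, at chr2:148871722-148875692 on the minus strand, has 3 exons. Exon numbers are those of the principal coding transcript in that annotation (the longest where there are several).

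Promoter sequence is shown as a description, and a link between its motifs and the levels by cell class below was not tested. RefSeq windows of 300 bases on GRCm38.p6, from 250 before to 50 after the gene start, were matched for 7 of the 9 members (8 windows, Lgmn having 2). They were searched for CACGTG, the letters shared by sites of the lysosomal regulator TFEB and its relatives, and on both strands for GAGGAAGT, a site type of the myeloid factor PU.1. The capitals mark the motif, ACTTCCTC being GAGGAAGT on the other strand.
Ctsd, chr7:142387909-142387936, minus strand: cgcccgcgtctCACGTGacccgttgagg
Ctsd, chr7:142388056-142388077, minus strand: tccccCACGTGacctgtatcca
Lgmn, chr12:102439125-102439152, minus strand: ggaatgtctgtCACGTGgtccattttat
Ctsl, chr13:64370740-64370767, minus strand: gcgttagaagcCACGTGctgatctaaat
Ctss, chr3:95526774-95526801, plus strand: atgaaagttcACTTCCTCattgtggatg
Ctsc, chr7:88277924-88277951, plus strand: tcactaactaACTTCCTCaggccacctc
CACGTG was found in windows of 3 of these 7 members and GAGGAAGT in 2. Of all 32851 mouse windows, 7.15% held CACGTG and 3.20% held GAGGAAGT, shares that count windows and not genes. The first base of the motif lay 98 and 245 bases before the RefSeq start in Ctsd, 49 in Lgmn, 236 in Ctsl, 2 in Ctss and 151 in Ctsc. The GENCODE models of Ctsd, Lgmn and Ctsl start upstream of these RefSeq starts, so the matches in Lgmn and Ctsl and the nearer match in Ctsd lie inside the GENCODE genes. A match describes these letters only.

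Ctss was highest in macrophages and present in every gate. In macrophages it stood at 2605 CPM (2489 to 2724) and 3296 CPM (3204 to 3391), its highest level in both libraries. Classical monocytes (31 and 29 cells) followed at 2324 and 1797 CPM, and a gate of myeloid cells with Ifitm3 and Cfp but without the type 2 dendritic cell (cDC2) markers Cd209a and Clec10a (239 and 338 cells) at 1322 and 1305 CPM. The order of these 3 gates was the same in both libraries, and their ranges over the libraries did not overlap. Ctss was 1246 and 1277 CPM in cDC2, 921 and 1048 CPM in migratory dendritic cells, and 966 and 840 CPM in plasmacytoid dendritic cells (pDC), the last pair overlapping. Among lymphocytes it was highest in B cells, at 511 and 561 CPM, and it stood at 353 and 300.2 CPM in regulatory T cells (Treg), 281 and 236 CPM in CD4 T cells and 162 and 149 CPM in CD8 T cells. The lowest levels were 118 and 133 CPM in natural killer (NK) cells and 63.9 and 36.4 CPM in type 2 innate lymphoid cells.

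**Figure D1:**
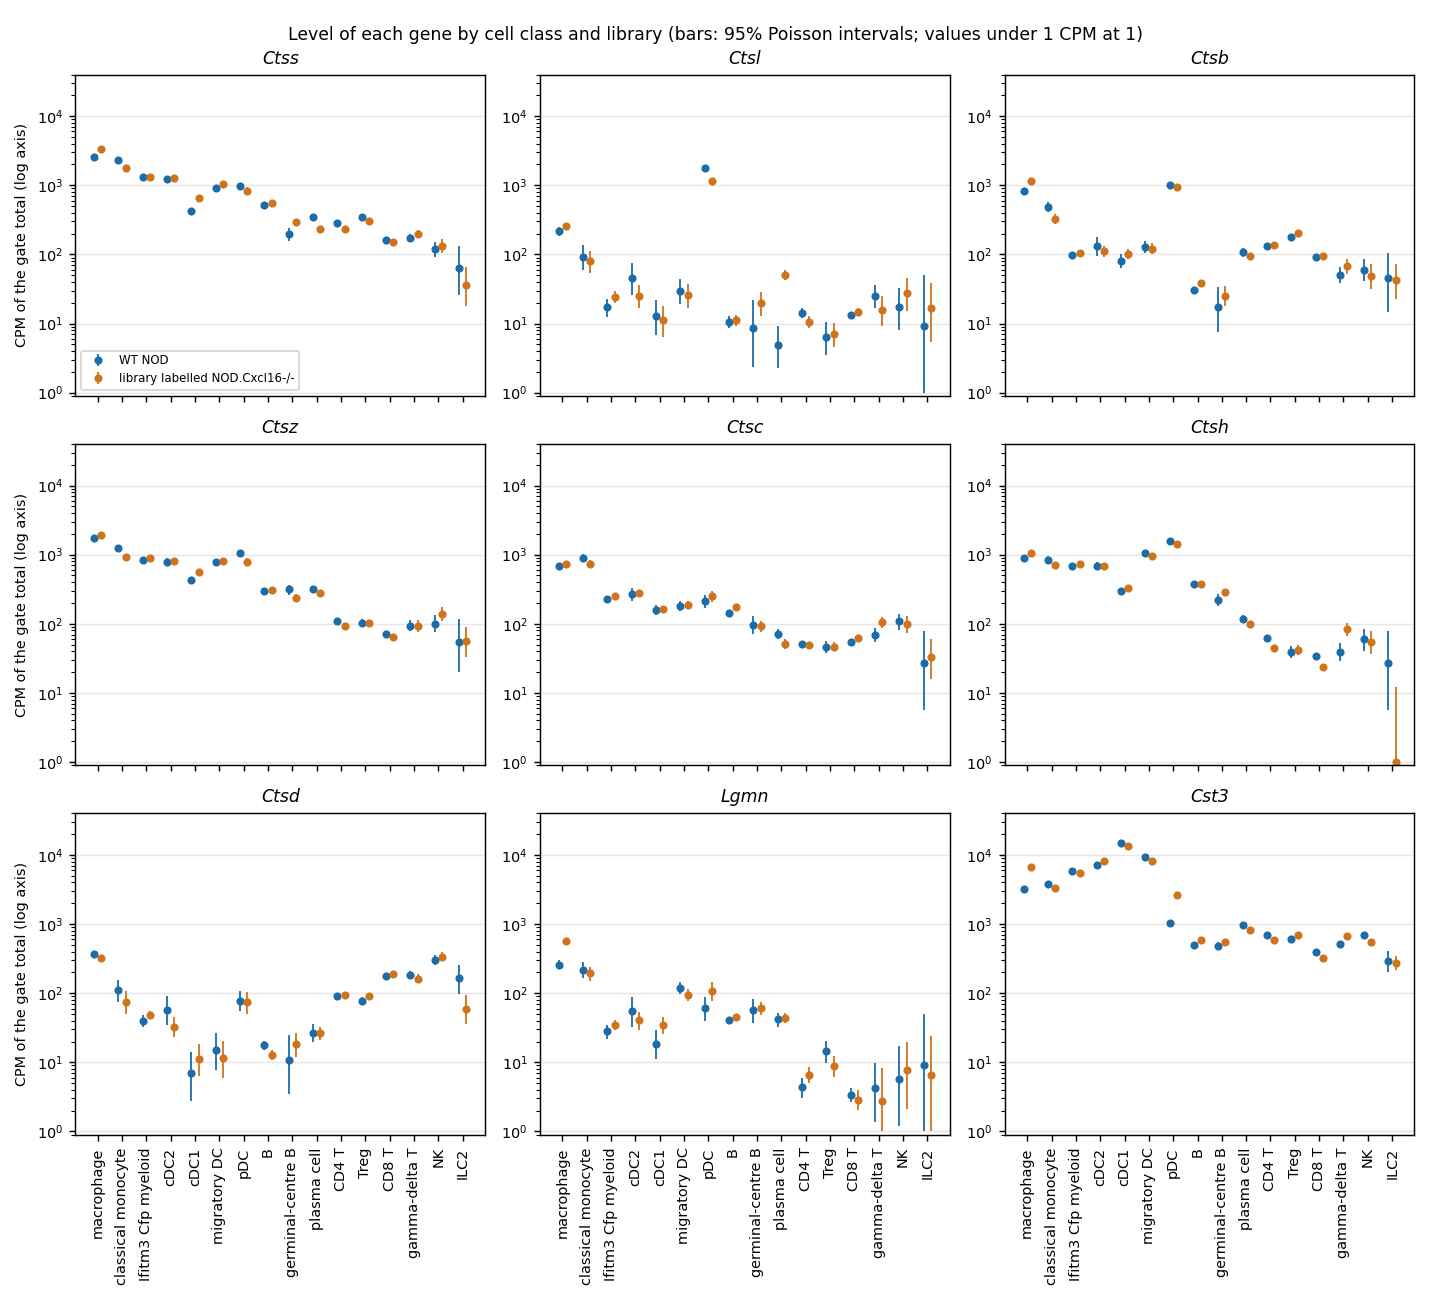
Level of each of the 9 genes in CPM (log axis) in the 16 gates, with WT NOD in blue, the library labelled NOD.Cxcl16-/- in orange and bars for 95% Poisson intervals of the counts. Ctsl stands far above its other gates in pDC, Ctsd is as high in NK cells as in macrophages, and Cst3 is highest in cDC1.

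Ctsl, an endopeptidase best known for invariant chain processing in the thymic epithelium, was concentrated in 1 gate. It stood at 1762 CPM (1641 to 1890) and 1165 CPM (1064 to 1273) in pDC (52 and 44 cells), the antiviral dendritic cells that release type I interferon. Macrophages came next at 215 and 257 CPM, then monocytes at 92.1 and 80.2 CPM. The other gates ranged from 4.93 to 50.9 CPM, so pDC exceeded every other gate in both libraries. After each cell was thinned to 2000 UMIs, 96.0% (86.3 to 99.5) and 80.5% (65.1 to 91.2) of pDC had a Ctsl UMI, with 2 and 3 cells left out. In B cells the thinned share was 1.56% (1.02 to 2.27) and 1.66% (1.14 to 2.32), with 176 and 78 left out. Before thinning, 96.2% and 93.2% of pDC (median 7888.5 and 8548.5 UMIs per cell) and 3.03% and 3.29% of B cells (median 4483.5 and 4586) held one. The 6 pDC markers were all detected in that gate, summing to 5801 and 5208 CPM, and the 8 macrophage markers summed to 11.2 and 14.2 CPM there.

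Ctsb, an endo- and carboxypeptidase of broad specificity, was high in those same gates. It stood at 829 CPM (764 to 898) and 1153 CPM (1098 to 1209) in macrophages and at 995 CPM (905 to 1092) and 949 CPM (858 to 1047) in pDC, ranges that overlap. Other dendritic gates were much lower, at 80.7 and 101 CPM in cDC1, 131 and 112 CPM in cDC2 and 130 and 122 CPM in migratory dendritic cells. Treg, at 180 and 207 CPM, lay above these gates. CD4 T cells, at 132 and 137 CPM, lay above cDC1 but close to cDC2 and migratory dendritic cells in the WT NOD library. Gamma-delta T cells, at 50.5 and 67.2 CPM, lay below these dendritic gates, and B cells were low at 30.6 and 38.2 CPM. Of the cysteine cathepsins, Ctsb was the one for which CD8 T cells exceeded B cells by the widest margin, with B cells at 0.332 and 0.402 times their level.

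Ctsz, a carboxypeptidase also called cathepsin X, and Ctsh, an aminopeptidase, were spread over the antigen-presenting cells. Ctsz was highest in macrophages, at 1722 CPM (1628 to 1820) and 1926 CPM (1856 to 1998), and stood between 782 and 1236 CPM in monocytes, pDC, the Ifitm3 Cfp gate, migratory dendritic cells and cDC2. Ctsh was highest in pDC, at 1599 CPM (1484 to 1721) and 1407 CPM (1296 to 1525). It followed in migratory dendritic cells, at 1045 and 964 CPM, and in macrophages, at 888 and 1061 CPM, a pair whose ranges overlap. B cells held 296 and 303 CPM of Ctsz and 377 and 377 CPM of Ctsh, while CD8 T cells held 71.9 and 64.2 CPM of Ctsz and 34.0 and 23.3 CPM of Ctsh. Both genes thus separated B cells from CD8 T cells by 4-fold or more.

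Ctsc, the dipeptidyl peptidase that activates granzymes, was highest in classical monocytes, at 903 CPM (796 to 1021) and 734 CPM (651 to 825), and in macrophages, at 682 and 731 CPM. All other gates lay at 281 CPM or below. In the lymphocytes that carry its granzyme substrates it was low, with 108 and 99.6 CPM in NK cells (105 and 99 cells), 69.0 and 106 CPM in gamma-delta T cells (199 and 171 cells) and 54.3 and 62.6 CPM in CD8 T cells. Its level in NK cells was below that in B cells, at 143 and 177 CPM, although Gzma stood at 3733 and 4458 CPM in NK cells and at 2.49 and 0.619 CPM in B cells.

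Ctsd, the aspartic protease of the set, followed another pattern. It stood at 367 CPM (325 to 414) and 322 CPM (293 to 352) in macrophages and at 302 CPM (257 to 354) and 338 CPM (289 to 392) in NK cells, ranges that overlap. CD8 T cells held 179 and 192 CPM and gamma-delta T cells 186 and 162 CPM. CD4 T cells, at 90.1 and 94.7 CPM, were lower than CD8 T cells in both libraries. Conventional type 1 and migratory dendritic cells and B cells were low, with 6.89 and 11.2 CPM in cDC1, 15.0 and 11.5 CPM in migratory dendritic cells and 17.6 and 12.7 CPM in B cells. The thinned share of cells with a Ctsd UMI was 29.6% (27.8 to 31.6) and 31.8% (29.5 to 34.2) in CD8 T cells, with 543 and 68 left out, against 3.53% (2.70 to 4.53) and 2.11% (1.52 to 2.84) in B cells, with 176 and 78 left out. Before thinning, 56.2% and 62.0% of CD8 T cells (median 4803.5 and 5692 UMIs per cell) and 8.50% and 6.43% of B cells (median 4483.5 and 4586) held one. Ctsd was thus the only member tested that was 4-fold higher in CD8 T cells than in B cells and in cDC1, in both libraries.

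Lgmn, the protease that cuts after asparagine and opens some antigens and other cathepsins, was highest in macrophages, at 259 CPM (223 to 299) and 569 CPM (532 to 609). Monocytes held 220 and 194 CPM, migratory dendritic cells 119 and 94.8 CPM and B cells 40.5 and 45.8 CPM. Alpha-beta T, gamma-delta T and NK cells held between 2.80 and 14.4 CPM. In CD8 T cells, at 3.39 and 2.86 CPM, the level was only 1.75 and 2.20 times what free RNA of each library's makeup would give, scaled by the C1q genes. The same ratio was 29.7 and 95.9 for Ctsd and 10.9 and 25.4 for Ctsb.

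Cst3, the inhibitor, reached the highest level of the 9 genes and had its own order. It stood at 14859 CPM (14623 to 15098) and 13460 CPM (13271 to 13652) in cDC1, which capture dying cells and present their antigens to CD8 T cells. Migratory dendritic cells held 9411 and 8116 CPM, cDC2 7061 and 8238 CPM and the Ifitm3 Cfp gate 5886 and 5399 CPM. Macrophages, at 3257 and 6583 CPM, overlapped that gate and monocytes. B cells held 502 and 591 CPM and CD8 T cells 398 and 320 CPM. In pDC the sums were 1022 and 2620 CPM, but the medians per cell were 857 and 782 CPM, and 1 barcode of the library labelled NOD.Cxcl16-/- held 372 of its 1104 UMIs.

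The balance between protease and inhibitor transcripts therefore differed widely between gates. It compares RNA counts only, and the protease sum includes Ctsd, which is not a cysteine protease. For each Cst3 UMI there were 0.0965 and 0.138 protease UMIs in cDC1, 0.344 and 0.402 in migratory dendritic cells, 2.32 and 1.42 in macrophages, 2.84 and 2.58 in B cells and 6.58 and 2.13 in pDC. The 8 proteases together came to 7567 and 9315 CPM in macrophages, 6727 and 5585 CPM in pDC, 1426 and 1526 CPM in B cells and 610 and 604 CPM in CD8 T cells.

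The makeup of that sum also differed between the gates. Ctss was its largest share in macrophages (34.4% and 35.4%), B cells (35.8% and 36.8%) and the Ifitm3 Cfp gate (40.6% and 38.2%). In B cells Ctsh followed with 26.4% and 24.7%, and in macrophages Ctsz with 22.8% and 20.7%. In pDC Ctsl made up 26.2% and 20.9%. In NK cells Ctsd alone made up 39.1% and 39.8%, and in CD8 T cells 29.4% and 31.8%, whereas in migratory dendritic cells it made up 0.463% and 0.352%. In Treg Ctss was the largest share, at 43.1% and 37.3%, followed by Ctsb at 22.0% and 25.7%. CD4 T cells had 17.7% and 20.4% of Ctsb.

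**Figure D2:**
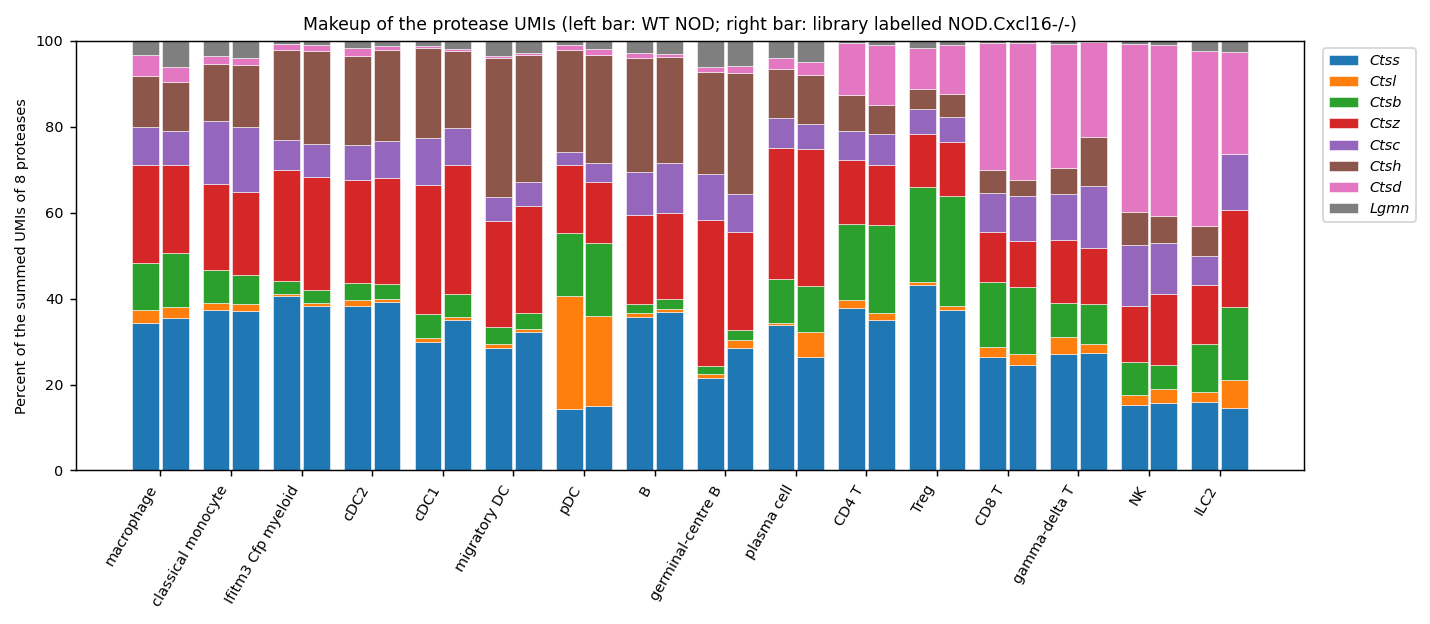
Share of each of the 8 proteases in their summed UMIs, in percent, with 1 pair of bars per gate (left WT NOD, right the library labelled NOD.Cxcl16-/-). Ctsd takes 39.1% and 39.8% in NK cells, and Ctsl takes 26.2% and 20.9% in pDC.

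These contrasts were set against all genes with a mean of at least 50 CPM, by the rule that a gene counts where it differs 4-fold in the same direction in both libraries. Macrophages exceeded CD8 T cells for 8 of the 9 members and were lower for 0 (9.92% and 6.02% of all genes tested), and they exceeded B cells for 8 and were lower for 0 (8.22% and 5.21%). The member under 4-fold was Ctsd against CD8 T cells, at 2.05-fold and 1.67-fold, and Ctsh against B cells, at 2.35-fold and 2.81-fold. Macrophages exceeded cDC1 for 6 members (4.29% of genes higher, 1.17% lower), the Ifitm3 Cfp gate for 4 (3.49% and 1.71%) and migratory dendritic cells for 3 (3.93% and 3.6%), and were lower than these for 0. The 4 against the Ifitm3 Cfp gate were Ctsl (12.6-fold and 10.6-fold), Ctsb (8.57-fold and 11.2-fold), Ctsd (9.13-fold and 6.63-fold) and Lgmn (9.23-fold and 16.5-fold), while Ctss, Ctsz, Ctsc, Ctsh and Cst3 stayed under 4-fold.

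Against CD8 T cells, pDC were higher for 5 members and lower for 0 (8.83% and 3.9%). The 5 were Ctss, Ctsl, Ctsb, Ctsz and Ctsh. Ctsl was 134-fold and 79.3-fold higher there. The Ifitm3 Cfp gate was higher for 5 and lower for 0 (7.45% and 4.38%), migratory dendritic cells for 4 and lower for 1 (9.7% and 5.95%), and cDC1 for 3 and lower for 1 (5.49% and 4.68%). B cells were higher for 2, Ctsz and Ctsh, and lower for 1, Ctsd (4.95% and 3.77%). NK cells differed from CD8 T cells by 4-fold for 0 members (2% of all genes were higher and 0.966% lower). Neither cDC1 over the Ifitm3 Cfp gate (0.648% of genes higher and 1.37% lower), migratory dendritic cells over cDC1 (2.54% and 0.765%) nor plasma cells over B cells (3.04% and 11.2%) had a member past 4-fold in either direction.

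The members were then correlated across the 11 gates with at least 50 cells in each library, which leave out pDC. Over 22 points (11 gates in 2 libraries), the correlation of log2(CPM + 1) was 0.95 between Ctsz and Ctsh, 0.93 between Ctss and Ctsz, 0.92 between Ctsz and Lgmn and 0.90 between Ctss and Ctsh. Ctsb and Ctsl followed these genes less closely, with 0.31 between Ctsb and Ctsh, 0.49 between Ctsb and Ctsz and 0.49 between Ctsl and Ctsh. Ctsd had correlations of -0.23 with Ctss, -0.44 with Ctsh and -0.47 with Cst3, but 0.35 with Ctsb and 0.39 with Ctsl. The points share library and depth in groups of 11, so these values describe the gates and have no p-value.

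The genes most like each member, among 3123 that reached 100 CPM in a gate, were taken by the same measure over the same gates, again without pDC. For Ctsh they were Cd74 (r = 0.98), H2-Eb1 and H2-Aa, and for Ctsz Cd74 (0.95), H2-Ab1 and H2-Eb1, all genes of the MHC class II pathway. For Ctsl they were Nr1h3 (0.87), C1qc and C1qa, for Ctsb Pf4 (0.85), Cebpa and C3ar1, and for Lgmn Slamf9 (0.93), Apobec1 and Ftl1. Ctsc was most like Zeb2os (0.97), with Lacc1 also among its nearest genes, Ctss most like Olfr111 (0.94), Prkcd and Grn, and Cst3 most like Tbc1d8 (0.95), Atf3 and Basp1. Ctsd had the weakest neighbours, Timp2 (0.82), Selenop and Fam173a. The T and NK gates entered both sets of correlations with all their cells. As described below, most of their Ctsh count and part of their Ctsz count lay in cells that also held the class II gene H2-Aa. In CD8 T cells without such cells, Ctsh went from 34.0 and 23.3 CPM to 3.57 and 2.67 CPM. The part of such cells in the correlations was not tested.

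The libraries were then compared gate by gate, as the log2 ratio of CPM + 1 of the library labelled NOD.Cxcl16-/- over WT NOD, with 1.5-fold as the size that counts. Of 99 pairs of a member and a gate, 70 had a mean of at least 50 CPM and 30 UMIs and 29 did not. Among the 70, 5 were higher and 1 was lower in the library labelled NOD.Cxcl16-/-, and 64 lay within 1.5-fold.

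In macrophages, 2 of 9 members were higher and 0 lower, where 6.66% of all genes were higher and 5.98% lower. The median ratio of the members was 0.26 and that of all 2626 genes -0.04. Lgmn went from 259 to 569 CPM, a ratio of 1.13 (0.91 to 1.37). Cst3 went from 3257 to 6583 CPM, a ratio of 1.02 (0.95 to 1.08). Ctsb, at 0.48 (0.34 to 0.61), and Ctss, at 0.34 (0.26 to 0.42), stayed under 1.5-fold, and Ctsd had the lowest ratio, -0.19 (-0.41 to 0.03). With 1 more marker required per gate, the ratio was 0.015 for Ctss, 0.017 for Ctsb and 0.098 for Ctsh. It was then negative for Ctsl (-0.093), Ctsz (-0.064), Ctsc (-0.18) and Ctsd (-0.44). Lgmn (0.65) and Cst3 (1.11) stayed past 1.5-fold under that setting.

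**Figure D3:**
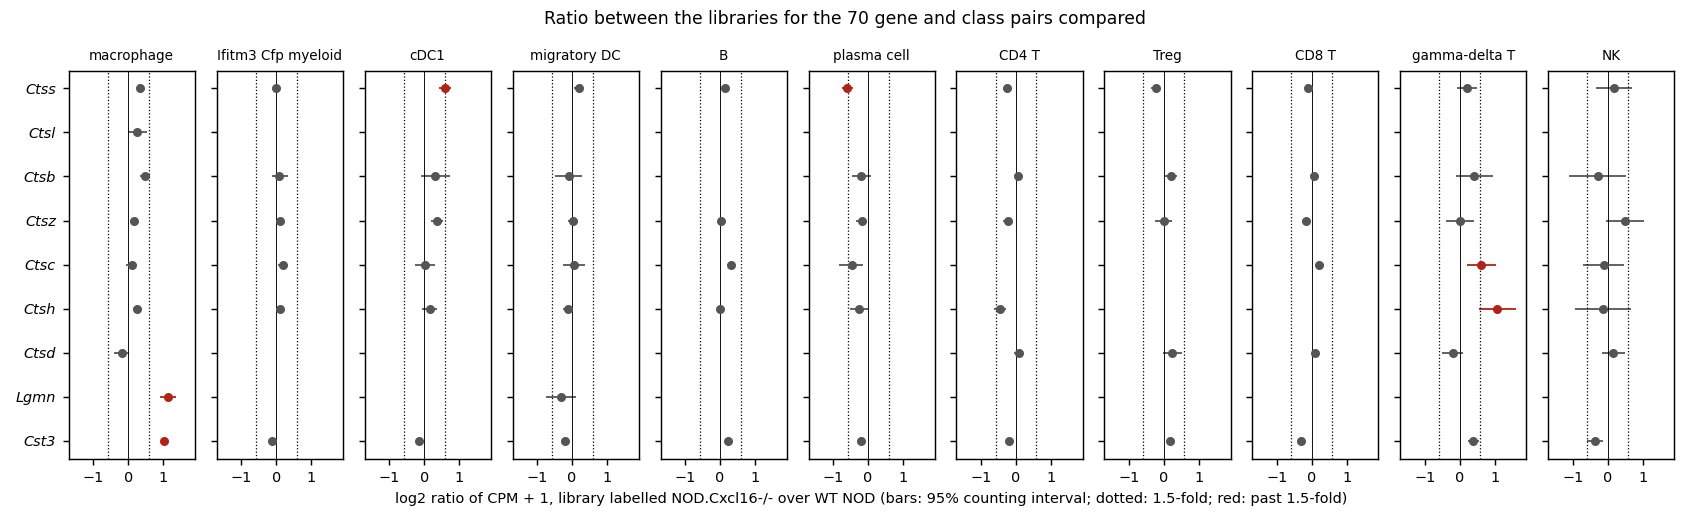
Log2 ratio of CPM + 1 between the libraries for the 70 pairs of a gene and a gate that were compared, with 95% counting intervals, dotted lines at 1.5-fold and red for ratios past it. Lgmn and Cst3 in macrophages and Ctsh in gamma-delta T cells lie to the right. Ctsc in gamma-delta T cells and Ctss in cDC1 lie just past the line to the right, and Ctss in plasma cells just past it to the left.

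Both macrophage differences came with other differences between the gates of the libraries. The C1q genes summed to 8449 and 14733 CPM, Apoe stood at 2495 and 5011 CPM, Ifitm3 at 1673 and 720 CPM and Ly6c2 at 26.0 and 4.08 CPM. An insulin transcript was present in 31 of 68 macrophages (45.6%) and in 113 of 143 (79.0%), and the 5 islet endocrine markers summed to 6996 and 11865 CPM. Insulin transcripts also differed outside this gate, with 8.30% and 40.5% of effector-like CD8 T cells holding one. Of the other lineages, the 5 T-cell genes summed to 41.1 and 55.8 CPM in the macrophage gate, the 6 B-cell genes to 45.2 and 30.6 CPM, the 4 cDC1 markers to 101 and 169 CPM and the 4 mast cell markers to 0 and 0. Their part in the differences was not tested.

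Splitting the gate by these transcripts, after the values had been seen, gave unlike results for the 2 genes. In macrophages without an insulin transcript (37 and 30 cells) Cst3 stood at 2941 CPM (2760 to 3131) and 3326 CPM (3105 to 3558), a ratio of 0.18, and in those with one at 3524 and 7264 CPM. In macrophages with all 3 C1q genes (42 and 114 cells) it stood at 3113 and 7243 CPM, and in the rest (26 and 29 cells) at 3485 and 2644 CPM. The Cst3 difference was thus seen, in these 2 splits, only in the cells with an insulin transcript and in those with all 3 C1q genes. The spread per cell was wider as well, as the median was 2633 and 4305 CPM, and the 90th percentile 5154 and 14441 CPM.

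Lgmn was higher in the library labelled NOD.Cxcl16-/- on each side of both splits. Its ratio of 1.13 over the whole gate became 0.65 with 1 more marker required, 0.67 as a mean per cell and 0.56, under 1.5-fold, with barcodes of several lineages kept. It stood at 294 and 612 CPM with an insulin transcript and at 218 and 366 CPM without. With all 3 C1q genes it was 344 CPM (292 to 403) and 630 CPM (587 to 675), a ratio of 0.87, and in the rest 124 CPM (86.2 to 172) and 208 CPM (151 to 280). Within each library, Lgmn, Ctsb, Ctsd and Ctsl were all higher in cells with all C1q genes than in the rest. For Ctsd these values were 530 against 110 CPM and 352 against 142 CPM, and for Ctsb 1147 against 325 CPM and 1265 against 483 CPM. Ctss, Ctsz, Ctsc and Ctsh were also higher in cells with all C1q genes than in the whole gate of the same library. Ctss stood at 3153 and 3610 CPM against 2605 and 3296 CPM, and Ctsh at 995 and 1117 CPM against 888 and 1061 CPM. With all 3 C1q genes required, Ctsd was lower in the library labelled NOD.Cxcl16-/- by just over 1.5-fold (-0.59), whereas in cells without an insulin transcript it was 331 and 496 CPM (0.58).

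**Figure D4:**
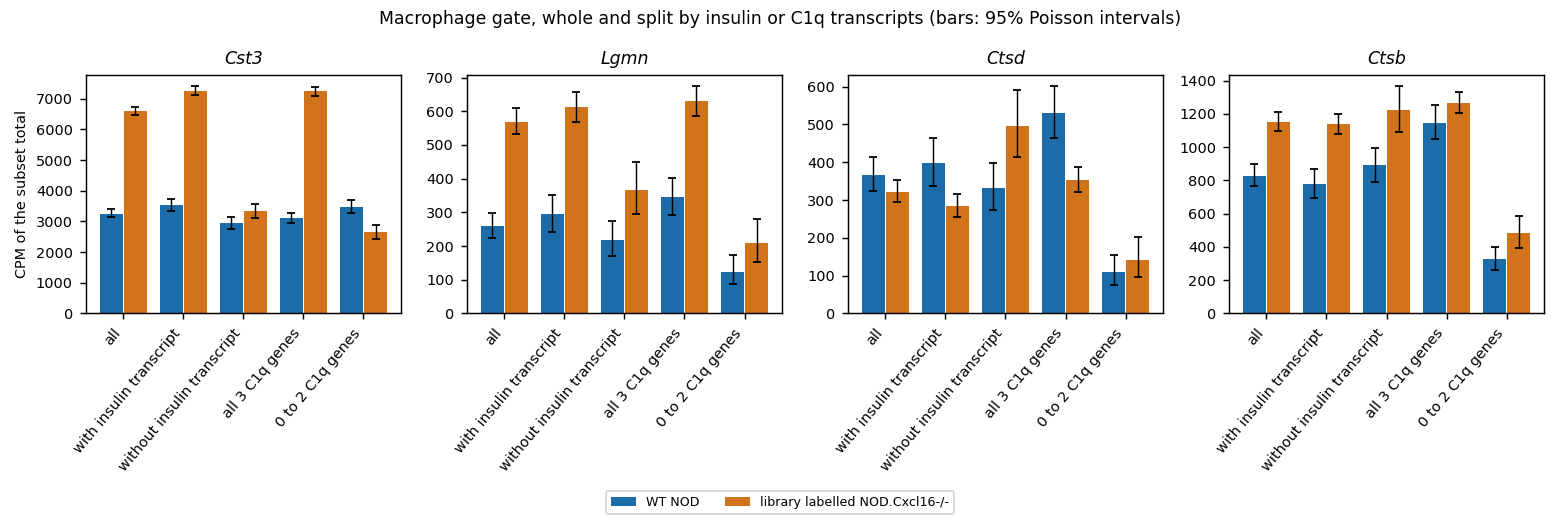
Level of Cst3, Lgmn, Ctsd and Ctsb in CPM in the whole macrophage gate and in its cells split by insulin transcript or by detection of all 3 C1q genes, with 95% Poisson intervals. Cst3 is 2941 and 3326 CPM in cells without an insulin transcript and 3524 and 7264 CPM in cells with one.

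The remaining calls were close to the threshold or rested on few cells. In cDC1, 1 of 6 members compared was higher, where 5.7% of all genes were higher and 4.11% lower. This was Ctss, at 429 CPM (390 to 472) and 652 CPM (611 to 695), a ratio of 0.60 (0.44 to 0.77). With each cDC1 thinned to 2000 UMIs the ratio was -0.19, and as a mean over cells it was 0.32. The 8 macrophage markers summed to 24.6 and 57.2 CPM in that gate, the 6 migratory dendritic markers to 53.2 and 177 CPM, and 16 of 53 and 62 of 85 cells held an insulin transcript. Their part was not tested.

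In plasma cells (71 and 121 cells), 0 of 6 members compared were higher and 1 was lower, against 4.39% and 3.13% of all genes. The member was Ctss, at 351 and 231 CPM, a ratio of -0.60 (-0.76 to -0.44), which became 0.09 when barcodes with markers of other lineages were kept. Ctsl had 9 and 157 UMIs there and was too low in the mean to be compared. Of the 157 UMIs, 149 came from 5 cells, and without those cells the level was 2.88 CPM. Those 5 cells held Jchain at 1144 CPM against 30342 CPM in the other plasma cells, and Top2a at 484 against 81.7 CPM.

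In gamma-delta T cells, 2 of 7 members compared were higher, where 4.63% of all genes were higher and 1.1% lower. Ctsc stood at 69.0 CPM (54.8 to 85.6) and 106 CPM (87.0 to 127), a ratio of 0.61 that lay under 1.5-fold with TMM scaling (0.51), median-of-ratios scaling (0.46) or barcodes of several lineages kept (0.44), among other settings. Ctsh stood at 39.5 and 83.1 CPM, a ratio of 1.05 (0.55 to 1.61), but 5 of 199 and 6 of 171 cells held 87.2% and 89.9% of its UMIs. No member passed 1.5-fold in the other gates compared. The shares of all genes that were higher and lower there were 1.31% and 0.988% in the Ifitm3 Cfp gate, 5.74% and 4.29% in migratory dendritic cells, 0.674% and 0.319% in B cells, 0.517% and 0.42% in CD4 T cells, 0.705% and 0.736% in Treg, 0.61% and 0.508% in CD8 T cells and 4.86% and 4.38% in NK cells.

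A few cells carrying most of the UMIs was the rule for Ctsh in T cells. In CD4 T cells, 46 of 1393 and 36 of 1366 cells had 5 or more Ctsh UMIs and held 83.1% and 83.2% of the total. In those cells the class II gene H2-Aa stood at 5566 and 5696 CPM, against 172 and 149 CPM in the other CD4 T cells. T and NK cells with 2 or more H2-Aa UMIs were therefore left out in a further comparison, chosen after these values were seen, which kept 1245 and 1246 CD4 T cells and 2314 and 1471 CD8 T cells.

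The members separated under that step. Ctsh in CD4 T cells went from 61.8 and 45.0 CPM to 4.88 and 2.81 CPM, and in CD8 T cells from 34.0 and 23.3 CPM to 3.57 and 2.67 CPM. For Ctsh, most of the T-cell count thus lay in barcodes that also carried class II transcripts. Cst3 in CD8 T cells went from 398 and 320 CPM to 164 and 175 CPM, and Ctsz in CD4 T cells from 111 and 94.1 CPM to 48.3 and 48.2 CPM. Ctss in CD8 T cells went from 162 and 149 CPM to 121 and 120 CPM. Ctsb and Ctsd stayed close to their levels. In CD8 T cells Ctsb went from 92.1 and 95.02 CPM to 89.4 and 95.6 CPM, and Ctsd from 179 and 192 CPM to 184 and 197 CPM. In gamma-delta T cells 3 and 5 Ctsh UMIs were left, whereas Ctsc remained at 58.1 and 99.2 CPM.

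**Figure D5:**
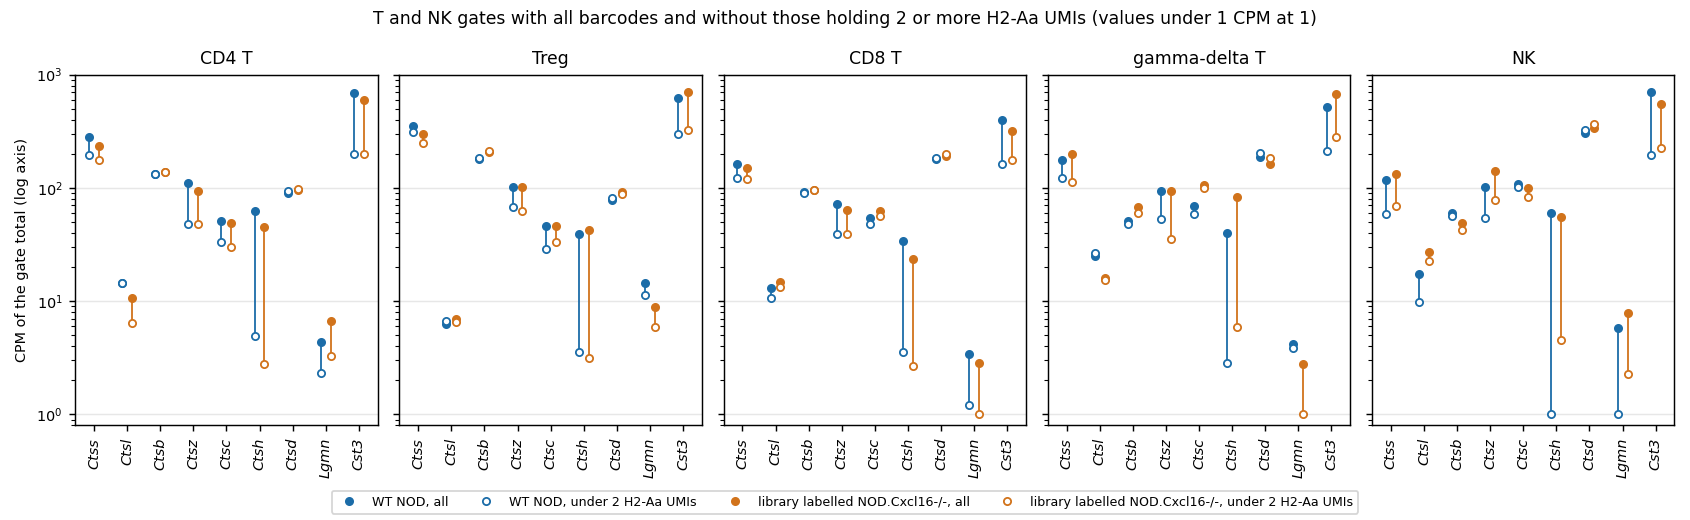
Level of each gene in CPM (log axis) in the T and NK gates with all cells (filled) and without cells holding 2 or more H2-Aa UMIs (open), by library. In CD8 T cells Ctsh drops from 34.0 and 23.3 to 3.57 and 2.67 CPM, and Ctsd stays at 184 and 197 CPM.

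Ctsb and Ctsd, the members least affected, also differed within the T-cell gates. Cells were called naive-like with at least 2 of 5 naive genes (such as Ccr7 and Lef1) and none of 8 effector genes, and effector-like with at least 3 effector genes (such as Gzmk, Nkg7 and Pdcd1) and fewer than 2 naive genes. Cycling cells were left out, and these states were chosen after the values had been seen. Among CD8 T cells, naive-like cells (48 and 36) held 1 Ctsb UMI in each library (4.67 and 6.32 CPM), and effector-like cells (1121 and 699) stood at 131 and 123 CPM. The ratio was 28.0 (5.01 to 1109) and 19.5 (3.48 to 770), so its size is poorly fixed while both intervals lie above 1. Ctsd went from 51.4 to 223 CPM, 4.33-fold (2.41 to 8.69), and from 101 to 252 CPM, 2.49-fold (1.52 to 4.37).

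CD4 T cells showed the same direction. Ctsb stood at 58.2 CPM in naive-like (180 cells) and 211 CPM in effector-like cells (236) of the WT NOD library, 3.62-fold (2.65 to 5.03), and at 53.1 and 206 CPM in the other (229 and 245 cells), 3.88-fold (2.92 to 5.25). Ctsd was 1.92-fold (1.43 to 2.60) and 1.98-fold (1.56 to 2.54) higher in effector-like cells. The rise was not particular to Ctsb and Ctsd. Cst3 was 6.33-fold (5.22 to 7.73) and 4.81-fold (4.21 to 5.51) higher in CD4 effector-like cells, more than Ctsb. In CD8 T cells its ratio was 0.674 (0.554 to 0.827) and 1.18 (0.843 to 1.72). Ctsz was 2.98-fold (2.04 to 4.46) and 1.87-fold (1.36 to 2.61) higher in CD4 effector-like cells, with ratios of 0.708 and 0.677 in CD8. Ctss moved in opposite directions in the 2 lineages, at 0.608-fold and 0.469-fold in CD8 and 2.02-fold and 1.56-fold in CD4 effector-like cells. Ctsh was lower in CD8 effector-like cells, at 0.283-fold (0.180 to 0.464) and 0.337-fold (0.162 to 0.810). In CD4 effector-like cells it was 8.05-fold (3.74 to 20.6) in the WT NOD library, over 7 naive-like UMIs. In the other library it was 1.46-fold (0.898 to 2.45), an interval that spans 1. Cells with 2 or more H2-Aa UMIs were kept in this comparison of states. Without them, Ctss over all CD4 T cells was 194 and 176 CPM in place of 281 and 236 CPM. The part of such cells in these directions was not tested.

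Other genes of the pathway were measured from fixed lists. Among 13 further lysosomal peptidases, 3 were high enough to compare in macrophages and 1 was higher in the library labelled NOD.Cxcl16-/-, where 6.66% of all genes were. This was Cpq, a carboxypeptidase, at 69.9 and 139 CPM (ratio 0.99). Ctsa stood at 297 and 361 CPM there. Ctsw, the cathepsin of cytotoxic lymphocytes, stood at 841 and 844 CPM in NK cells and at 359 and 393 CPM in CD8 T cells, above each of the 8 proteases in both gates.

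Of 14 other inhibitors, 13 are in the files, and in macrophages 2 could be compared and 0 passed 1.5-fold, among them Cstb, the cystatin of the cytosol, at 689 and 561 CPM. In NK cells Ctla2a, which resembles a cathepsin propeptide, stood at 1436 and 1833 CPM, exceeding Cst3 at 703 and 545 CPM, and 2 of 6 inhibitors compared were higher between the libraries, where 4.86% of all genes were. Serpinb6b was 393 and 409 CPM in migratory dendritic cells.

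Among 7 class II chaperones and the lysosomal reductase, 6 were compared in macrophages and 2 were lower in the library labelled NOD.Cxcl16-/-, where 5.98% of all genes were lower. These were Ifi30, the reductase, at 2531 and 1653 CPM (ratio -0.61), and H2-Oa, which was named after its value was seen, at 97.3 and 46.3 CPM (-1.06). Cd74, the invariant chain that cathepsin S trims, stood at 21361 and 26903 CPM. Among the lysosomal hydrolases and activators, Psap, the precursor of the saposins, stood at 1578 and 1583 CPM and Npc2, a carrier of cholesterol, at 1192 and 1243 CPM. Of 19 lysosomal membrane and proton pump genes, 15 were compared and 1 was higher, a share close to the 6.66% of all genes. It was Atp6ap1, likewise named after its value was seen, at 42.5 and 71.4 CPM. Atp6v0c, at 902 and 860 CPM, and Lamp1, at 721 and 685 CPM, the most abundant of that list, lay within 1.5-fold. The median ratio of the membrane and pump list was 0.18, beside -0.04 for all genes.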

How the data were processed

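Barcode-by-gene UMI counts of 2 libraries, made with Cell Ranger 7.0.1 on mm10 per the submitters' processing notes, were used as deposited; the annotation and the treatment of intronic reads are not given in the sources used here. Barcodes with at least 500 genes and at most 10% mitochondrial counts were kept. Cells were gated by detected marker genes (3 of 8 for macrophages, 3 of 5 for T cells, 3 of 6 for B cells, 4 of 7 for plasma cells), and barcodes passing more than 1 lineage were left out as likely doublets. A doublet caller that scored out 1537 and 891 barcodes was an alternative. The gates were revised once with cell counts and marker levels in view, before any member value was computed. The members and gene lists were chosen with earlier results of these data known.

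UMIs were summed per gate and library and compared as log2(CPM + 1) where both libraries had at least 50 cells, with 1.5-fold as the size that counts (genes at 50 CPM or more and 30 UMIs or more) and 4-fold between gates. Such a call is a size and not a test. On simulated counts, 98% of 100 genes changed 2-fold passed 1.5-fold in macrophages (2629 genes), and 0.780% of 2435 unchanged genes did. For CD8 T cells (2949 genes) these shares were 100% and 0%. With 1 library per genotype the spread between animals is not known, so these shares are not rates of false calls between the libraries. In the data, 6.66% of macrophage genes were higher and 5.98% lower past the same fold. Poisson intervals for levels and Clopper-Pearson intervals for shares were exact. All 9 members were described in every gate, together with the 3 genes most like each by correlation and up to 3 genes of highest mean level from each pathway list and gate. Some genes of these lists are not reported here. In all, 16 other settings were tried, 3 of them chosen after the data had been seen. Barcodes that passed no gate were not analysed further. Python 3.11.15 with numpy 2.4.6, scipy 1.17.1 and pandas 2.3.3 was used, with edgeR 4.0.16 and DESeq2 1.42.0 in R 4.3.3 for scaling factors only.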

Additional observations from a re-analysis of the deposited data

Results flagged for a closer look

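Ctss differed between the libraries in opposite directions in 2 gates. The log2 ratio of the library labelled NOD.Cxcl16-/- over WT NOD was 0.60 in cDC1 (429 and 652 CPM) and -0.60 in plasma cells (351 and 231 CPM). With 1 library per genotype, the difference between these ratios was not tested.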

How the results depend on the processing

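No paired analysis was possible because each genotype has 1 library. All 70 ratios stayed within their counting intervals with 200 genes, 5% mitochondrial counts, TMM, median-of-ratios or reduced-total scaling, or a pseudocount of 10 CPM. Only 28 did with barcodes of several lineages kept, 34 without barcodes holding an insulin transcript and 40 after thinning; the cause was not tested. Of the ratios past 1.5-fold, those that changed sign were Ctss in cDC1 after thinning (-0.19), Ctss in plasma cells with mixed barcodes kept (0.091) and Ctsh in gamma-delta T cells with 1 more marker (-0.028). Ratios within 1.5-fold also changed sign, in macrophages Ctsb (-0.05) and Ctsl (-0.24) with mixed barcodes kept, Ctsz after thinning (-0.079), and Ctsc (-0.21) and Ctsd (0.58) without insulin-bearing barcodes. The ratio of Ctsh in gamma-delta T cells was 0.24 without the highest doublet scores, and that of Ctsc there 0.51 with TMM and 0.46 with median-of-ratios scaling. Pairs that were higher numbered 5, but 8 with mixed barcodes, 8 after thinning, 9 with no filter on low counts and 3 without insulin-bearing barcodes. Pairs that were lower numbered 1, but 0 without the highest doublet scores, 0 with a pseudocount of 10, 3 with no filter, 2 with all 3 C1q genes required, 9 without insulin-bearing barcodes and 2 without class II barcodes. With mixed barcodes 1 member was higher in macrophages, and with all C1q genes 1 was lower and 5 in place of 3 members were highest there. In cDC1, 0 were higher with mixed barcodes, as a mean per cell or without insulin-bearing barcodes, and 3 with no filter. The share of all genes past 1.5-fold under each of these settings is not given here. These counts therefore describe the settings and are not a result about the members. In macrophages, Lgmn ranged from 0.56 (mixed barcodes kept) to 1.19 (TMM) and Cst3 from 0.18 (insulin-bearing barcodes out) to 1.26 (thinned). Genes under 50 CPM were not compared, which left out 29 of 99 pairs of a member and a gate together with those under 30 UMIs.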
